A study of Caenorhabditis elegans with 2 samples.

Results

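The regions described here are all 4918 regions on chromosome II in the pooled list of ZIM-3-GFP chromatin immunoprecipitation sequencing (ChIP-seq), out of 30000 regions over the 6 nuclear chromosomes of Caenorhabditis elegans. They were taken by chromosome name alone, on the ce11 assembly. The animals were whole young adults of strain OP581, which carries unc-119(tm4063) on chromosome III and the transgene wgIs581, a stable insertion that encodes ZIM-3 fused at its C-terminus to GFP and FLAG. They were a pool of both sexes, collected 54.5 h after synchronisation by starving hatched L1 larvae from bleached parents, and chromatin was sheared by sonication and precipitated with an anti-GFP antibody. There were 2 biological replicates of this 1 group, so no condition is compared, and the comparisons set chromosome II against the other 5 chromosomes or 1 stretch of II against another. A control library named in the labels was not analysed here. Whole animals mix germ line and soma, so a region cannot be assigned to a tissue.

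The zinc finger protein ZIM-3 works in meiosis. Together with its relatives ZIM-1, ZIM-2 and HIM-8 it binds special stretches near one end of each chromosome, the pairing centres, through which homologous chromosomes find each other and synapse in the germ line. ZIM-3 is known to serve chromosomes I and IV, ZIM-1 serves II and III, ZIM-2 serves V and HIM-8 serves X. Chromosome II is therefore a chromosome whose own pairing centre, towards its left end, is served by another member of the family.

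The pooled list holds peaks and background together. Of its members on II, 145 are also in the authors' list of 906 peaks that passed an irreproducible discovery rate (IDR) threshold, a measure of how well replicates rank the same regions, and these are called IDR peaks here.

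The sequences under the leading regions show the kinds of place that the highest signals marked on II. All are plus-strand RefSeq sequence of WBcel235, the assembly called ce11, read 5′ to 3′ and cut back where an exon of a protein-coding gene began. The highest region of II lay between F44E5.4 and F44E5.5, a pair of genes of the HSP70 chaperone family, at II:11759329-11759628, and the capitals mark the 7 matches to GAANNTTC, the core of the heat shock element. The next highest lay beside the snoRNA gene W03C9.9 at II:11960744-11960976, with the gene in capitals. The highest region near a tRNA gene lay between linc-44 and the tRNA-Gly gene F10C1.t1 at II:5782000-5782299, with the tRNA gene, which is on the minus strand, in capitals.
F44E5.4: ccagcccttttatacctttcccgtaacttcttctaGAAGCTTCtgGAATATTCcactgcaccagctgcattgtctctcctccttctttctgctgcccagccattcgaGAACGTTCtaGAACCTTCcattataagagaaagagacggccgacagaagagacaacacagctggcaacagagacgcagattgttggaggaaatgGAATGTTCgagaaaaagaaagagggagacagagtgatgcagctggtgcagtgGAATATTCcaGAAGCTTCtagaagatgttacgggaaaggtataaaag
W03C9.9: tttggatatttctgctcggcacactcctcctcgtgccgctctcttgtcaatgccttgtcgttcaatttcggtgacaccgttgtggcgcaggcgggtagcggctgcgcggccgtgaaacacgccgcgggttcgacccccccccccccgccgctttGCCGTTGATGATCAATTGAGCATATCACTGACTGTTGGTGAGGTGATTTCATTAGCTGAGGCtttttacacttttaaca
linc-44: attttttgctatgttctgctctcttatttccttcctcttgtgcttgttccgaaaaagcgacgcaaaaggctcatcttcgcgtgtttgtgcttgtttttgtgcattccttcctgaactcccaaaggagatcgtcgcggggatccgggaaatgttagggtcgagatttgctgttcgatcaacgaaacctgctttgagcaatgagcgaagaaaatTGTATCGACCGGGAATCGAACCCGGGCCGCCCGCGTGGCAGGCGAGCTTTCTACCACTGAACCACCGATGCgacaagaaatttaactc

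Of the next sequences, that at II:1320483-1320782 was the highest of the first 2 Mb of II and holds the piRNA gene 21ur-13751, in capitals. The region at II:15025783-15026078 was the highest of the last 2 Mb, beside the minus-strand snoRNA gene Y53F4B.47, in capitals. The region at II:5844676-5844975 lay beside sls-2.1, a spliced leader 2 RNA gene annotated as snRNA, in capitals. It was chosen after its values were seen.
21ur-13751: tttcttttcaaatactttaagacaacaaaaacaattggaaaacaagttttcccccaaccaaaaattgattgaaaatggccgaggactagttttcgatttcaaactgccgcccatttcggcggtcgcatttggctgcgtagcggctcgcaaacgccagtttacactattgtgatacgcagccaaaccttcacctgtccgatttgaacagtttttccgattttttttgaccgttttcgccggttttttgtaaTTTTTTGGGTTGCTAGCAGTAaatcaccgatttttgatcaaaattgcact
Y53F4B.47: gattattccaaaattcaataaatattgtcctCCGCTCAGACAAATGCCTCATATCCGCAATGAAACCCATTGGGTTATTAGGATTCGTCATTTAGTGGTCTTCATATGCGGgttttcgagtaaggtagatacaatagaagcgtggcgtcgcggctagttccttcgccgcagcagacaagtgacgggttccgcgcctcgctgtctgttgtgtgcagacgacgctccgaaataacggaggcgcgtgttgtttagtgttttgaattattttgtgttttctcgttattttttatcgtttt
sls-2.1: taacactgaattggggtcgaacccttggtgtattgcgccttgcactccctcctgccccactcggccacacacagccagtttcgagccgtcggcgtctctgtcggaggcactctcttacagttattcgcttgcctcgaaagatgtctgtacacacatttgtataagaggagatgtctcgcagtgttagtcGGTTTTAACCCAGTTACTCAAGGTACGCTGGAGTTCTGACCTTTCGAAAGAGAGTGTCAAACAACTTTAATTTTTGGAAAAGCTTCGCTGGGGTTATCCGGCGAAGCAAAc

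Chromosome II held 16.4% of the pooled regions (95% exact interval 16.0 to 16.8) on 15.2% of the length of the 6 chromosomes. The list of replicate 1 placed 4868 of its 30000 regions on II and that of replicate 2 placed 4925. The density was 322 regions per Mb on II and 295 per Mb on the other 5 chromosomes together. II stood between chromosome III at 343 per Mb and chromosome I at 319 per Mb, above X at 298, V at 277 and IV at 255 per Mb. All intervals here are Clopper-Pearson intervals and cover counting error over regions only. The files give no read counts, so the depth behind a region is unknown.

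IDR peaks made up 2.95% of the regions of II (2.49 to 3.46) and 3.03% of those elsewhere, against 3.02% over all regions. The 145 IDR peaks of II were 16.0% of the 906. By rank of signal, the authors' height of a region, II held 16.9% of ranks 907 to 5000, 16.5% of ranks 5001 to 15000 and 16.2% of ranks 15001 to 30000. Its share was thus nearly the same at every height. The IDR peaks are exactly the 906 highest regions of the pooled list. On II the lowest of them had signals of 141.2 (at the tRNA gene Y57A10C.t1), 140.9 (twk-2) and 140.8 (ras-1), and the first outside had 140.1 (near cdc-48.1), 138.7 (rsf-1) and 138.7 (W03C9.2). The median signal was 67.68 on II and 67.39 elsewhere, and among IDR peaks it was 175.3 on II and 174.7 elsewhere.

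The 25 highest regions of II were led by a promoter shared by chaperone genes, a snoRNA gene and an intron of a transcription regulator. The region between F44E5.4 and F44E5.5 had a signal of 558.7 in the pooled list, 440.4 in replicate 1 and 123.5 in replicate 2, and ranked 8 of 30000, 8 and 17 in these lists. Its summit was 168 bp upstream of F44E5.4. F44E5.4 and F44E5.5 resemble each other closely, and the sources used here do not say how reads that fit both were placed. W03C9.9 had 515.6 in the pooled list, 385.3 in replicate 1 and 129.8 in replicate 2, and was the higher of the leading pair in replicate 2. The region ranked 3 on II, in an intron of mdt-26, which encodes a subunit of the Mediator complex that links transcription factors to RNA polymerase II, had 489.8 pooled, 370.9 in replicate 1 and 113.7 in replicate 2. These 3 are the regions of II among the 25 highest of the genome. The scale of the signal differs between the lists, so values compare within a list only.

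Of the 25, 14 lay at most 500 bp from a gene of the tRNA, snoRNA or snRNA class, together called small RNA genes here: 9 near snoRNA genes, which guide chemical modification of other RNAs, 3 near snRNA genes and 2 near tRNA genes. They included Y53F4B.47 (369.7), Y53F4B.48 (307.0) and K02C4.8 (278.2), and intronic snoRNA genes in the MAP kinase gene mpk-2 (318.6) and the condensin gene mix-1 (281.8). The snRNA genes among them were sls-2.1 (335.5), sls-2.2 (299.5) and sup-6 (266.2), where sls-2.1 and sls-2.2 encode spliced leader RNAs, joined to the 5′ ends of messages in trans, and sup-6 encodes a U1 snRNA.

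The other 11 lay away from such genes. They included cdc-48.1, an AAA ATPase of protein degradation (362.9, 163 bp upstream of its start), the non-coding gene K10H10.14 (367.4), and hmg-1.1, an HMG box chromatin protein gene (274.1). The cdc-48.1 summit was 506 bp from the snoRNA gene C06A1.9, just beyond the limit used. The region beyond the end of lgg-1, the worm Atg8 protein gene of autophagy, had 285.1 pooled and rank 80 in replicate 1 but a signal of 34.03 and rank 2569 in replicate 2. It was the only one of the 25 outside the highest 906 regions of replicate 2, and all 25 were among the highest 906 of replicate 1. Only 6 regions of II departed from the common width of 376 bp, with widths down to 102 bp, and all 6 were IDR peaks.

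**Figure D1:**
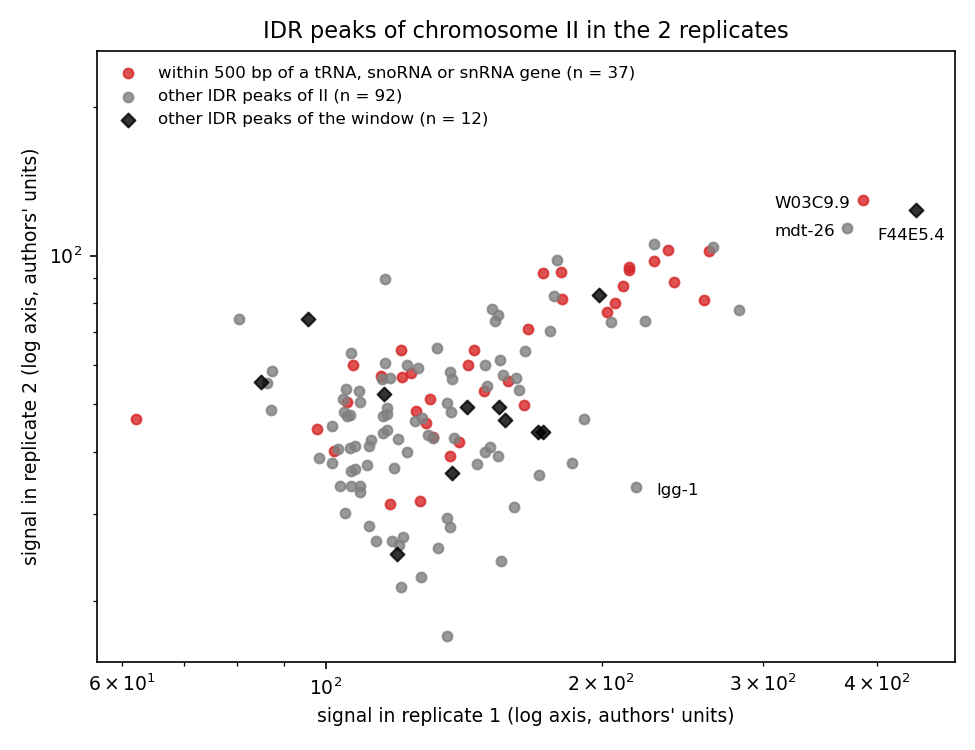
Signal of the 141 IDR peaks of II with a summit of both replicates within 200 bp, replicate 1 on the horizontal and replicate 2 on the vertical axis, both logarithmic, in the authors' units. Red points lie within 500 bp of a small RNA gene (tRNA, snoRNA or snRNA) and black diamonds are the other peaks of the 510 kb window around F44E5.4; F44E5.4, W03C9.9 and mdt-26 lie highest in replicate 1, and lgg-1 is high in replicate 1 with 34.03 in replicate 2.

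Along II the density of regions was lowest near the left end and highest towards the right. Counted in 1 Mb bins from the left end, it ran from 212 regions per Mb in bin 2 to 388 per Mb in bin 12, with 412 per Mb in the last, incomplete bin. Bins 1 to 4 held 289, 212, 264 and 288 regions, and each of bins 5 to 15 held at least 305. The replicate lists placed 217 and 212 regions in bin 2, and 394 and 428 in bin 12. Over the 15 complete bins the densities of the replicates had Pearson r = 0.88 and Spearman rho = 0.81. These bins share the chromosome, the control library and the same gene landscape, so this is a description.

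The number of IDR peaks per bin had a wider relative range than that of regions, but such small counts vary more by counting alone. Bins 1 and 2 held 3 IDR peaks each, bin 6 held 20 and bin 12 held 17. Bin 6 contained mdt-26 and both sls-2 genes named above, and 16 small RNA genes. Over the 15 complete bins, IDR peaks per bin and the number of these small RNA genes had r = 0.75 and rho = 0.71. Region density and the number of protein-coding genes had r = -0.32 and rho = -0.38, and region density and GC content had r = -0.16 and rho = -0.11. Highest regions of the remaining bins included F48A11.4 in bin 1 (301.0), sqv-2 in bin 3 (188.3), an enzyme gene of glycosaminoglycan synthesis, ntl-2 in bin 5 (197.6), of the CCR4-NOT deadenylase complex, and the galectin gene lec-1 in bin 14 (233.3). The lowest of these bin maxima, at sqv-2, was still an IDR peak.

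**Figure D2:**
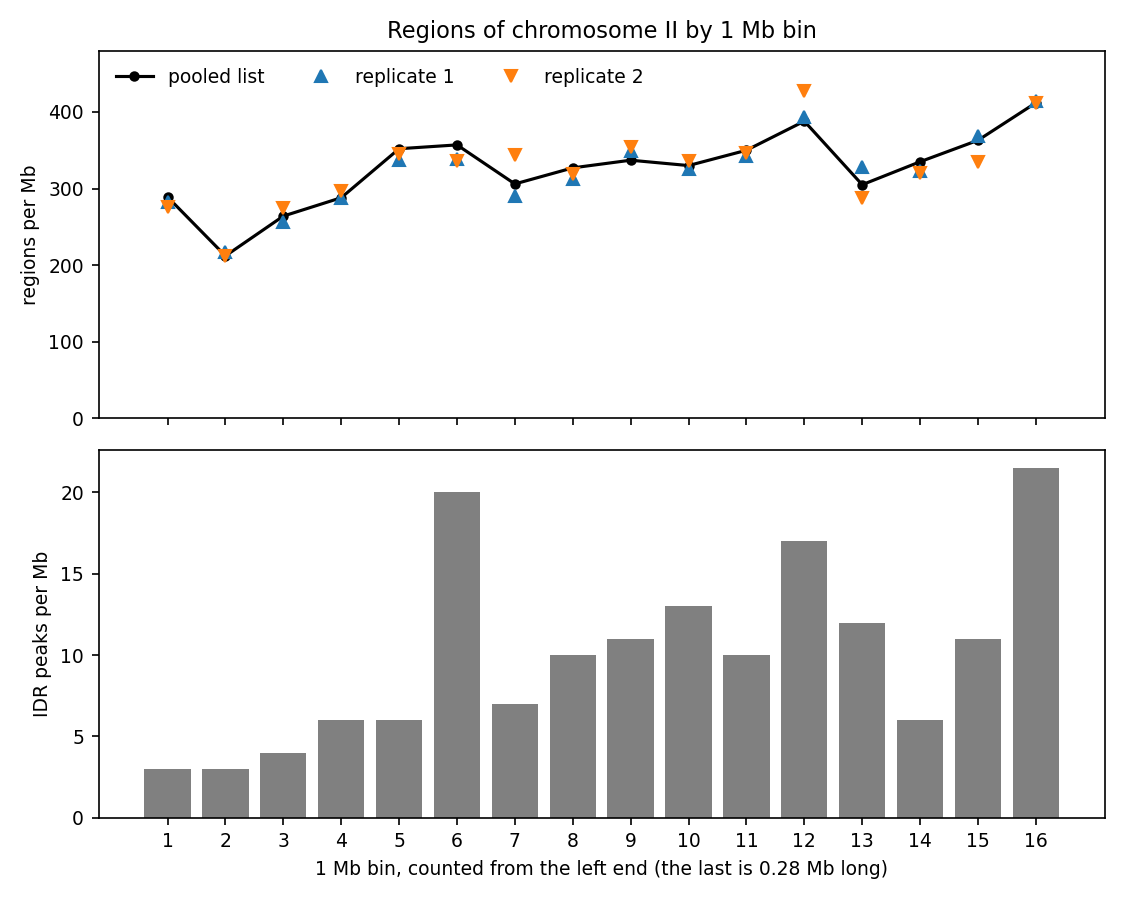
Regions per Mb of chromosome II in the pooled list and in each replicate (upper panel) and IDR peaks per Mb (lower panel), by 1 Mb bin counted from the left end. Density was lowest in bin 2 (212 per Mb) and IDR peaks were fewest in bins 1 and 2 (3 each) and most numerous among complete bins in bin 6 (20).

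The first 2 Mb, the end towards which the pairing centre of II lies, held fewer regions than the last 2 Mb. There were 501 in the first and 701 in the last, so the first held 41.7% of both (38.9 to 44.5). In replicate 1 the counts were 499 and 704 and the share was 41.5%; in replicate 2 they were 488 and 664 and the share was 42.4%. Among IDR peaks the first 2 Mb held 6 and the last 20, a share of 23.1% (8.97 to 43.6). This share was 55.9% on I, 40.4% on III, 65.3% on IV, 36.7% on V and 32.4% on X. The last 2 Mb thus held more IDR peaks on III, V and X too. The interval of II overlapped those of all but IV (50.4 to 78.3). Of the 906 highest regions of each replicate, the first 2 Mb held 9 of the 26 at both ends of II in replicate 1 (34.6%) and 9 of 31 in replicate 2 (29.0%). The corresponding shares of all regions were 53.7% on I, 45.4% on III, 70.3% on IV, 53.2% on V and 48.2% on X, so II had the lowest of the 6. The interval of II overlapped that of III (42.7 to 48.1) and no other. Joining summits within 10 kb turned the direction: 46 of the 82 joined regions of both ends of II lay in the first 2 Mb, a share of 56.1%. This joining chains neighbours into runs, and the median gap between summits of II was 1722 bp. Joined counts are thus of runs parted by gaps above 10 kb, which can be fewer where regions are denser, and do not measure density.

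The ends differed in what they contain. The first 2 Mb held 461 protein-coding genes, 104 pseudogenes and 5 genes of the classes tRNA, snoRNA and snRNA (2, 3 and 0), whereas the last 2 Mb held 314 protein-coding genes, 28 pseudogenes and 17 of those small RNA genes (2, 8 and 7). Of protein-coding genes, 3 of 461 in the first 2 Mb had an IDR summit within 1 kb of their start and 12 of 314 in the last, against 2.50% of all protein-coding genes. A summit of both replicates was found for 43.5% of the regions of the first 2 Mb (39.1 to 48.0) and 52.4% of those of the last (48.6 to 56.1). Median signals were 66.24 in the first and 69.56 in the last 2 Mb.

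The 6 IDR peaks of the first 2 Mb lay at few places. The highest, near 21ur-13751 and between fcho-1 and vig-1, had 337.6 pooled, 228.1 in replicate 1 and 105.7 in replicate 2. FCHO-1 acts in endocytosis and VIG-1 is a subunit of the RNA-induced silencing complex; a second IDR peak lay 20 bp beyond the end of vig-1 (162.4). F48A11.4 had 301.0 pooled, 222.8 in replicate 1 and 73.65 in replicate 2. The others were at mrpl-28, a mitochondrial ribosomal protein gene (183.1), in scc-2, which encodes the loader of cohesin onto chromosomes (172.8), and in an intron of W09B6.4 (148.9). None of the 6 lay within 500 bp of a small RNA gene. In the last 2 Mb the highest were Y53F4B.47 (369.7), K10H10.14 (367.4), Y53F4B.48 (307.0), hmg-1.1 (274.1) and mog-4 (238.2), an RNA helicase gene of germline sex determination.

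The longest stretches of II without summits lay in both its left and its right part. The longest gap between neighbouring summits of II was 50.1 kb, at II:1863784-1913888, against a median gap of 1722 bp. It held 19 protein-coding genes, of which 15 were genes of proteins with MATH or BTB domains, adaptors of ubiquitin ligases in a family expanded in nematodes. A gap of 44.1 kb near it, at II:1988258-2032325, held 12 genes, of which 9 were of this family. The remaining 3 of the 5 longest gaps, of 48.7, 40.5 and 39.8 kb, lay in the right part of II and held 7, 9 and 3 protein-coding genes, none of them of the MATH, BTB, F-box, histone, major sperm protein or chemoreceptor lists. The longest gap between IDR peaks was 1566 kb, at II:1323093-2889395. It held 348 regions below the IDR threshold and 412 protein-coding genes, including 55 MATH or BTB genes and 55 F-box genes, another family of ubiquitin ligase adaptors. In the first 2 Mb, 35 of 115 MATH, BTB and F-box genes had any summit within 1 kb of their start (30.4%, 22.2 to 39.7), compared with 167 of 346 other genes there (48.3%, 42.9 to 53.7), where 47.6% is the share over all protein-coding genes. On the rest of II it was 28 of 69 such genes (40.6%) and 1478 of 2919 others (50.6%). The handling of reads shared by similar gene copies is not stated, and its part in these gaps was not tested.

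**Figure D3:**
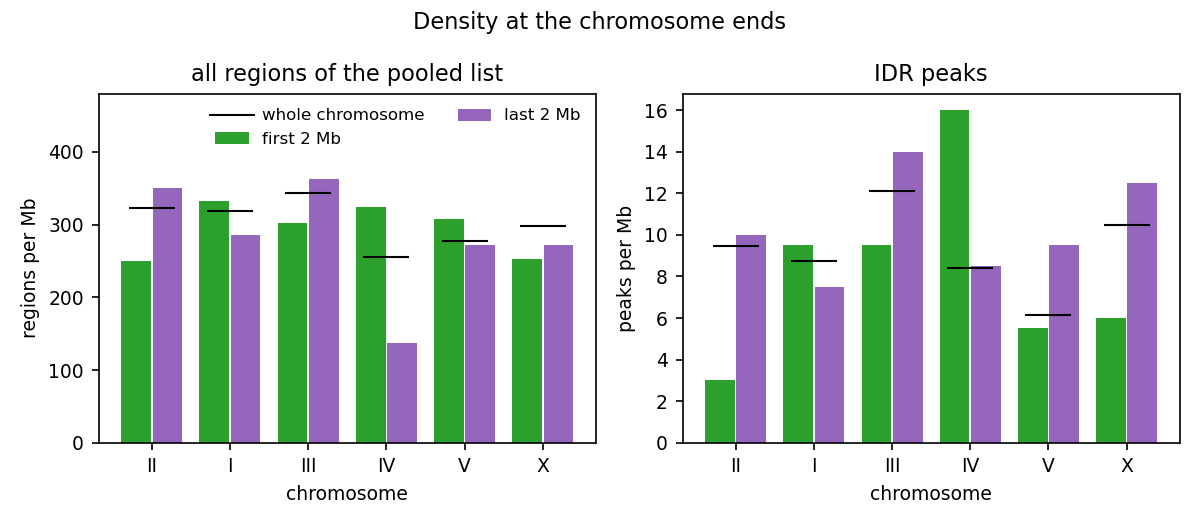
Density in the first 2 Mb (green) and last 2 Mb (purple) of each chromosome, with the density of the whole chromosome as a black line, for all regions of the pooled list (left) and IDR peaks (right), per Mb. Chromosome II had 501 regions and 6 IDR peaks in its first 2 Mb and 701 and 20 in its last. Its first 2 Mb had the lowest IDR density of the 12 ends. On III, V and X the last 2 Mb also held more IDR peaks than the first.

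The window from 11.48 to 11.99 Mb, 510 kb or 3.34% of II, held 16 of the 145 IDR peaks of II (11.0%, 6.44 to 17.3). That is 31.4 IDR peaks per Mb in the window and 8.73 per Mb on the rest of II, 3.59-fold. All regions together were 202, or 396 per Mb in the window and 319 per Mb on the rest, 1.24-fold. The window was chosen on earlier results of these data, so its IDR density is a description. The list of replicate 1 placed 208 regions there and that of replicate 2 placed 224. Of equally many highest regions as there were IDR peaks, replicate 1 placed 15 in the window (10.4% of those on II) and replicate 2 placed 18 (12.1%). IDR peaks made up 7.92% of the regions of the window (4.60 to 12.5) and 2.74% of those of the rest of II (2.29 to 3.24). For all regions the window did not stand highest: of 1477 stretches of the same length in steps of 10 kb, 27 held as many or more, up to 215 for one starting at 12.79 Mb.

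The 16 peaks fell into 9 clusters when summits within 10 kb were joined, and 4 clusters held 11 of them. The cluster around the HSP70 pair held F44E5.4 (558.7), F44E5.16, a non-coding RNA gene (190.2), and an intron of gpb-1, the G protein beta subunit gene (210.0). At the right side W03C9.9 (515.6) stood with W03C9.5 (207.3), the acyl-CoA-binding protein gene acbp-6 (144.0) and Y17G7B.21 (218.0). Another cluster held F54D5.22, a non-coding RNA gene at the promoter of dnj-13, which encodes an HSP40 co-chaperone (279.1), and dhgd-1 (160.0). The remaining one held Y62F5A.9 (199.5) and Y62F5A.12 (155.5), the one peak of the window with no summit of replicate 2 within 200 bp.

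The lone peaks were twk-5 (331.1), a potassium channel gene with the snoRNA gene B0334.12 55 bp from the summit, ZK20.9, a snoRNA gene (155.0), F13D12.5 (169.0), kel-1, a kelch protein gene (145.0), and an exon of lin-29 (177.4), a zinc finger gene of developmental timing. In replicate 2 the kel-1 peak had 24.92 and rank 8599. The window held 112 protein-coding genes, 9 snoRNA genes, 1 tRNA gene and 16 miRNA genes. Of its IDR peaks 3 lay near snoRNA genes and none near a tRNA gene, so that 13 remained apart from small RNA genes. An IDR summit within 1 kb of the start was found for 12 of the 112 protein-coding genes of the window (10.7%), against 2.44% on II and 2.50% of all protein-coding genes. Since the window was chosen for its IDR peaks, nothing is read from this share.

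**Figure D4:**
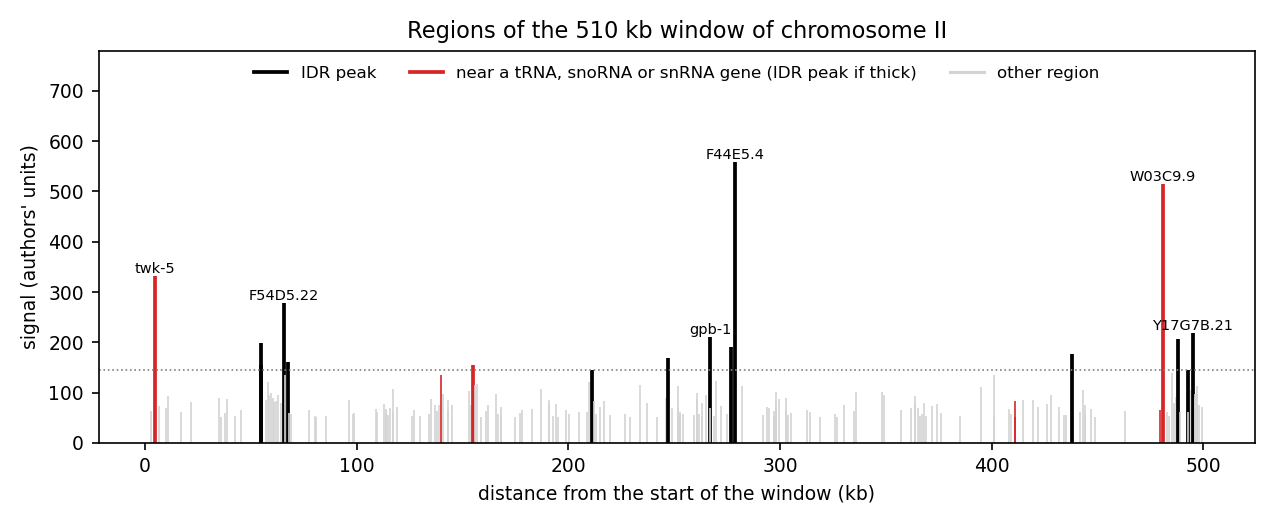
The 202 regions of the 510 kb window, each a vertical line with its signal in the pooled list (authors' units) against the distance of its summit from the start of the window in kb. Black and thick red lines are the 16 IDR peaks, red marks regions within 500 bp of a small RNA gene (tRNA, snoRNA or snRNA), and the dotted line is the lowest IDR signal in the window (144.0); F44E5.4 (558.7) and W03C9.9 (515.6) stand above the rest.

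By gene context, the regions of II were close to those elsewhere. A summit counted as promoter when a protein-coding gene began transcription within 500 bp of it, which held for 28.4% of regions on II (27.1 to 29.7) and 26.8% elsewhere (26.2 to 27.3). Other exons held 33.4% on II and 31.7% elsewhere, introns 18.6% on II and 21.0% elsewhere, and intergenic sequence 19.6% on II and 20.5% elsewhere. IDR peaks were more often at promoters than the other regions, on II (42.1%, 33.9 to 50.5, against 28.0%) and elsewhere (35.9%, 32.5 to 39.4, against 26.5%). No test compared these shares, which are given as counts with intervals.

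Some IDR peaks of II lay near tRNA, snoRNA and snRNA genes. Of the 145 IDR peaks of II, 17 lay within 500 bp of a tRNA gene (11.7%, 6.98 to 18.1), 15 of a snoRNA gene (10.3%) and 6 of an snRNA gene (4.14%). On the other chromosomes it was 26.1% near tRNA genes (23.1 to 29.4), 7.49% near snoRNA genes and 1.31% near snRNA genes. The share near tRNA genes elsewhere rests mostly on X, where it was 57.0% (106 of 186), while the counts were 21 of 132 on I, 24 of 167 on III, 28 of 147 on IV and 20 of 129 on V. Those 4 chromosomes together had 16.2% (13.3 to 19.4), an interval that overlapped that of II. Near snoRNA genes those 4 together had 9.57% of their IDR peaks and X had 1.08%, while I alone had 15.2%. Near snRNA genes those 4 together had 1.74% (0.837 to 3.18) and X had 0%, while III alone had 6 of 167 (3.59%). II carries 57 of the tRNA genes and the others 555, of which X has 276. Taken per gene, 21 of 57 tRNA genes of II had an IDR summit within 500 bp (36.8%, 24.4 to 50.7) and 42.2% elsewhere (38.0 to 46.4), so the intervals overlapped; on I, III, IV and V together it was 36.9% and on X 47.5%. Per snoRNA gene it was 16 of 71 on II (22.5%) and 20.7% elsewhere. Per snRNA gene it was 6 of 16 on II (37.5%, 15.2 to 64.6) and 9 of 113 elsewhere (7.96%, 3.71 to 14.6). The peaks behind this count are not separate units, since sls-2.1 and sup-6 each lay nearest to a pair of them. The exact interval takes genes as separate. No miRNA gene of II had one (0 of 49, upper bound 7.25%), and 11 of 212 elsewhere did. Many snRNA and tRNA genes occur as near-identical copies, so which copy a peak belongs to is uncertain.

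tRNA genes with IDR peaks on II encoded many amino acid acceptors: 4 of 7 tRNA-Lys, 3 of 5 tRNA-Thr, 3 of 5 tRNA-Ile, 3 of 8 tRNA-Ala and 2 of 10 tRNA-Leu genes had one. Over all tRNA genes of II it was 21 of 57 (36.8%). None of the 4 tRNA-Pro genes had one. These lie in neighbouring pairs that share regions with signals of 110.9 and 127.9, under the IDR threshold. No difference between acceptors is read from such small counts. These counts are not separate, since the 21 tRNA genes with an IDR peak shared 17 peaks. Each of the 3 tRNA-Thr genes shared its peak with a tRNA-Lys gene. The remaining tRNA-Lys gene, F49C5.t4, shared its peak with the tRNA-Leu gene F49C5.t3. The summits near tRNA genes had a median position 19 bp from the gene start towards its end, while those near snoRNA genes lay at a median of -28 bp, that is upstream, in 11 of 15 cases. The region near F10C1.t1 had 326.8 pooled, 239.7 in replicate 1 and 88.50 in replicate 2. F35H8.t1 had 265.8 pooled, 181.0 in replicate 1 and 81.74 in replicate 2. A pair of IDR summits flanked sls-2.1, with signals of 335.5 and 174.5, and another pair flanked sup-6, with 266.2 and 181.5.

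**Figure D5:**
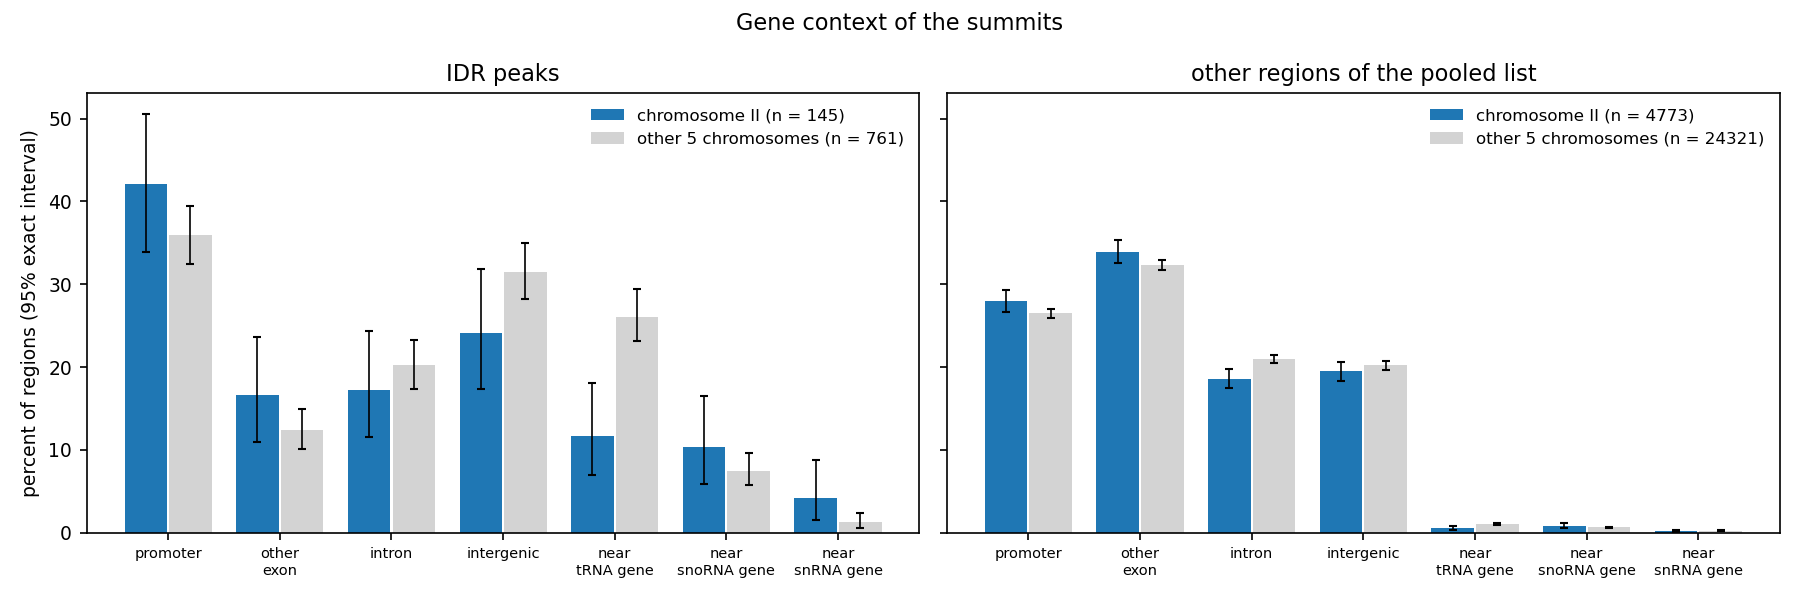
Share of summits by gene context, and within 500 bp of tRNA, snoRNA and snRNA genes, for chromosome II (blue) and the other 5 chromosomes (grey), among IDR peaks (left) and other regions (right); bars are percent with 95% exact intervals, and nearness to small RNA genes was counted apart from the 4 contexts. Among IDR peaks, 11.7% on II and 26.1% elsewhere lay near tRNA genes, where the grey bar joins 57.0% on X with 16.2% on I, III, IV and V.

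Motifs were searched on both strands in 300-base windows centred on each summit. GGTTCGA, the core of the B box, the internal promoter element of tRNA genes bound by the RNA polymerase III factor TFIIIC, was in 3.33% of the windows of II, 3.45% of those elsewhere and 3.43% of all 30000. It was in 13 of the 17 II windows of IDR peaks near tRNA genes (76.5%, 50.1 to 93.2). Of all 44 II windows near tRNA genes, 29 held it (65.9%, 50.1 to 79.5). Since the B box lies inside tRNA genes, a window at such a gene can hold it whatever its signal. In the F10C1.t1 sequence printed above it lies inside the capitals, on the strand of the gene. Away from tRNA genes, 7 of 128 IDR peaks of II held it, and these were chosen after their values were seen. They included the regions of W03C9.9 and sls-2.1 printed above, where it lies upstream of the snoRNA and the spliced leader gene and outside the capitals. The others lay in introns of mix-1, of unc-104 (at C52E12.t1, annotated as a pseudogene, 215.8), of mdt-26 (a second peak, 175.3) and of ras-1, and near 2RSSE.4 at the right end (145.0). In all, 2 of 15 IDR peaks near snoRNA genes and 1 of 6 near snRNA genes held it.

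GAANNTTC, the heat shock element core, reads the same on both strands. It was in 17.7% of the windows of II, 17.1% of those elsewhere and 17.2% of all. The 7 matches in the F44E5.4 window were the most in any window of II, where 6 windows held at least 4, and 5 of all 30000 windows held at least 7. GAGAGAGA was in 3.78% of the windows of II and 3.83% of all, and in 14 of 202 windows of the 510 kb window (6.93%, 3.84 to 11.4). In those 202 windows GAANNTTC was in 39 (19.3%) and GGTTCGA in 7 (3.47%), close to their shares on II. The 510 kb window was chosen on these data, so nothing is read from these shares. Matches to GAANNTTC and to GGTTCGA can overlap, and each count is of windows, not of bound sites.

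Genes near peaks were counted within 1 kb of their start by lists made from gene names. Of 3449 protein-coding genes of II, 84 had an IDR summit (2.44%) and 1708 any summit (49.5%), against 2.50% and 47.6% over all protein-coding genes. Heat shock protein and chaperonin genes had 3 of 13: F44E5.4 and F44E5.5, which share 1 peak, and dnj-13. Of the others on this list, the highest signals within 1 kb of a start were 137.0 at cct-1, a chaperonin subunit gene, 108.4 at dnj-9 and 105.9 at hsp-4, the worm BiP gene of the endoplasmic reticulum, all below the IDR threshold. Farther inside a gene, dnj-20 held 2 IDR peaks, with signals of 161.1 and 147.8, at 5379 and 4592 bp from the start of the gene. Both counted as promoter, being within 500 bp of another annotated protein-coding transcription start. Cytosolic ribosomal protein genes had 2 of 9, rpl-43 (167.9) and rpl-32 (159.1), and all 9 had some region, the lowest at rpl-26 with 52.80. Both IDR summits lay nearer to other genes. That counted for rpl-43 was 186 bp upstream of Y48B6A.1, and that for rpl-32 was in an intron of chmp-7.

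Translation factor genes had 2 of 12, iff-2, the worm eIF5A gene (194.7 pooled and 141.8 in replicate 1, with no match in replicate 2), and eif-2Bgamma (150.7), whose peak lay 51 bp from the U1 snRNA gene sup-39. Splicing factor genes had 1 of 10, snrp-200 (233.4), the helicase gene of the U5 particle. C-type lectin genes had 1 of 48 (clec-126, 171.1, at a tRNA gene), cuticle collagen genes 1 of 24 (col-85, beside a tRNA gene) and chemoreceptor genes 1 of 169 (sre-52, not matched in replicate 2), while sre-45 held an IDR peak in an intron (173.2). At 500 bp in place of 1 kb, the ribosomal and chemoreceptor counts fell to 0 and the translation factor count to 1.

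Several gene lists had no IDR summit at a start, against 2.44% of the protein-coding genes of II: 0 of 77 MATH and BTB genes, 0 of 107 F-box genes, 0 of 15 nuclear hormone receptor genes, 0 of 14 histone genes, 0 of 13 major sperm protein genes, 0 of 11 respiratory chain genes and 0 of 7 proteasome genes. The exact upper bounds were 4.68% for the MATH and BTB genes, 3.39% for the F-box genes and 21.8 to 41.0% for the smaller lists, all above that background, so none of these counts is a result about its list. The nuclear hormone receptor genes nhr-88 and nhr-19 each held an IDR peak farther inside the gene (154.8 and 146.0). The major sperm protein genes, which encode the cytoskeletal protein of worm sperm, had no pooled summit within 1 kb of a start. That is 0 of 13, with an exact upper bound of 24.7%. Of the 14 histone genes 2 had a pooled summit there (14.3%, 1.78 to 42.8), his-42 (128.2) and his-73 (65.25). The share with any pooled summit was 49.5% of the protein-coding genes of II and 47.6% of all protein-coding genes. Both families lie in near-identical copies, and the part of read placement in these counts was not tested.

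Among genes of meiotic pairing, synapsis and recombination on II, 0 of 7 had an IDR summit within 1 kb of the start, against 2.50% of all protein-coding genes; a count of 0 in 7 allows a share of up to 41.0% (exact upper bound). Their highest pooled signals were 108.6 at nbs-1, of the MRN repair complex, 82.9 at xpf-1, a nuclease gene, 72.7 at dsb-2, which promotes meiotic double-strand breaks, 69.2 at him-14, the MSH4 gene of crossing over, and 61.8 at pch-2, a checkpoint ATPase gene. Each value is the highest within 1 kb of a gene start. The median of such values over the protein-coding genes of II with any summit was 70.93. The meiotic values lay on both sides of it, and all under the IDR threshold. The genes scc-2 and zyg-12 had no summit within 1 kb of their start. The IDR peak in scc-2 described above lay 8291 bp from the start of that gene. It counted as promoter, being within 500 bp of another annotated protein-coding transcription start.

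The replicates matched on II as they did elsewhere. A summit of replicate 1 lay within 200 bp of 83.1% of the regions of II and 83.0% elsewhere, a summit of replicate 2 within 200 bp of 62.4% on II and 62.7% elsewhere, and both for 2416 regions or 49.1% on II (47.7 to 50.5) and 49.2% elsewhere, against 49.2% over all. Neither replicate matched 3.60% of the regions of II and 3.47% elsewhere. By rank, both replicates matched 97.2% of the IDR peaks of II, 88.7% of ranks 907 to 5000, 65.5% of ranks 5001 to 15000 and 23.8% of ranks 15001 to 30000. Since the pooled list comes from the same reads as the replicate lists, a match is no independent support.

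All 145 IDR peaks of II had a summit of replicate 1 and 141 had one of replicate 2. Those without one were iff-2 (194.7), the tRNA gene F49C5.t2 (160.4), Y62F5A.12 (155.5) and sre-52 (146.8). Of the 145, 124 were among the 906 highest regions of replicate 1 and 93 among those of replicate 2, with worst ranks of 7879 and 23878. Over the 2416 regions matched in both, the signals of the replicates had Spearman rho = 0.35 on II and 0.34 elsewhere, and over the 141 IDR peaks 0.45 on both. Some neighbouring regions matched 1 summit together: 104 regions of II shared one of replicate 1 and 162 one of replicate 2.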

How the data were processed

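ZIM-3-GFP ChIP-seq of 2 biological replicates was analysed from region lists of the narrowPeak kind. Per the deposited file descriptions, the authors called 30000 regions (peaks and background) in each replicate and on the pooled reads, with a control library, and derived an IDR-thresholded list. No source used here names the aligner or caller. The signal of each region, the authors' deposited value, has no stated scale, and it was used to rank regions inside each list. The deposited −log10 q-values were not used. Depth is unknown. ce11 positions are 1-based. Summits were placed in the RefSeq WBcel235 sequence and Ensembl release 115 genes; 402 of 408 genes of II listed only by ID were named from RefSeq. Context took promoter (500 bp from a protein-coding start), exon, intron and intergenic in that order. Summits matched within 200 bp. Shares have 95% exact (Clopper-Pearson) intervals from scipy 1.17.1. The counters were tested on simulated data. No test was made. The members, gene lists and window were chosen with earlier results of these data known. Named genes were those nearest to the 25 highest regions, the highest of each bin, the window's and first 2 Mb's IDR peaks, the 5 highest of the last 2 Mb, and up to 4 per gene list.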

Additional observations from a re-analysis of the deposited data

How the results depend on the processing

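With 1 group of 2 samples, no result rests on a test. Values are called moved where they shifted by more than the spread between the replicates or the exact interval. The count of protein-coding genes of II with an IDR summit was judged by its ratio instead. That count, 84 at 1 kb and 57 at 500 bp, was called the same. In all, 20 of 51 alternatives were called the same. No paired analysis was possible because there is 1 group. Among IDR peaks only, the share of regions on II was 16.0%, the first 2 Mb share of end regions 23.1%, the window share 11.0%, the promoter share 42.1% and the share matched in both replicates 97.2%. Among the 5000 highest regions these were 16.7%, 30.5%, 6.35%, 33.9% and 90.2%, and the median rank percentile of II was 49.2 (50.6 over all regions). With summits within 10 kb joined, II held 14.4% of 1866 joined regions and its first 2 Mb 56.1% of end regions. The window then held 3.36% and promoters 32.8%, with a median rank percentile of 47.1. Joined regions are runs parted by gaps above 10 kb, so their counts do not measure density. The lists of single replicates gave ranges of 16.2 to 16.4% for II, 41.5 to 42.4% for the first 2 Mb, 4.27 to 4.55% for the window, 50.0 to 50.4 for the rank percentile, 27.8 to 28.0% for promoters and 62.4 to 83.1% for matches to 1 replicate. Ends of 1 Mb gave 44.4% for the first, and a window wider by 250 kb on each side gave 7.40%. Promoter distances of 250 bp and 1 kb gave 15.9% and 47.8%, and match distances of 100 and 500 bp gave 38.1% and 59.9%. Without regions near small RNA genes, 2.23% of the regions of II were IDR peaks. Alternatives for the IDR peaks were chosen after seeing the data: their window share ran from 8.11 to 12.1% and their first 2 Mb share of end peaks from 20.8 to 34.6%. Causes were not tested. Counting intervals ignore that neighbouring regions share reads.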
